A study of Homo sapiens with 4 samples.

Results

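The transcriptional readout of ERK signalling was followed through 10 genes: the phosphatase genes DUSP4, DUSP5 and DUSP6, the Sprouty genes SPRY2 and SPRY4, the Sprouty-related genes SPRED1 and SPRED2, the ETS factor genes ETV4 and ETV5, and PHLDA1. They were chosen by symbol as known ERK-responsive genes, at a time when earlier results of these data were known. Each of the 10 matched 1 of the 60658 gene identifiers in the deposited tables. The study concerns TMEM161A, which encodes a membrane protein, and tumour growth in colorectal cancer. It silenced the gene with a small interfering RNA (siRNA), a short duplex that leads to the breakdown of a matching mRNA. Its 4 libraries came from 2 established human colorectal cancer lines, HT29 and LIM1215. For each line, 1 library had a negative control siRNA with no target gene (titles ending in NC) and 1 had an siRNA against TMEM161A (titles ending in si2). With 1 library in each group, no value below carries an error between cultures and no difference between groups was tested. HT29 is known to carry the activating BRAF V600E change, which keeps ERK signalling on, and LIM1215 is known as a line without a BRAF mutation. Each line stands for a single tumour, and the titles name the same siRNA for both knockdowns.

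ERK is the last kinase of the cascade that runs from receptor tyrosine kinases through RAS, RAF and MEK. Active ERK switches on a small set of genes, many of which then hold the same cascade back. DUSP phosphatases remove the activating phosphates from kinases of the ERK family, Sprouty and SPRED proteins act higher up between the receptor and RAF, and ETV4 and ETV5 carry the signal on as transcription factors. In the colon, the EGF receptor uses this cascade to drive the division of epithelial cells, and RNA of these genes is widely read as a gauge of ERK output.

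The DNA before the start site is shown for 4 members, those whose window held a motif marked below. Of these, DUSP6, SPRY2 and SPRY4 were higher with the TMEM161A siRNA in both lines, and PHLDA1 was among the members that differed most between the lines. SPRED1 and SPRED2 were also higher with that siRNA in both lines, but their windows held no such motif and are not shown. Each sequence is the 250 bases before the start site in RefSeq (GRCh38.p14, minus strand for all 4), read 5′ to 3′. Capitals mark matches on either strand to CCGGAA, a longer form of the GGAA core that ETS factors bind. Matches to GGAA alone are left in lower case. Capitals also mark, on either strand, TGACG (the short form of the cyclic AMP response element) and TGANTCA (the AP-1 site). TGAATG, the core of sites of CIC (a repressor that ERK inactivates), is marked in the same way. The windows are chr12:89352502-89352751 for DUSP6, chr13:80341127-80341376 for SPRY2, chr5:142324248-142324497 for SPRY4 and chr12:76031777-76032026 for PHLDA1.
DUSP6: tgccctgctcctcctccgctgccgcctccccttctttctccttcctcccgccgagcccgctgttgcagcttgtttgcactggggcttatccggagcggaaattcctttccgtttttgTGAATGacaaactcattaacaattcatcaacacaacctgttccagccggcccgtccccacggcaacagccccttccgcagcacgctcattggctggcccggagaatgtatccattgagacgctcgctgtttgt
SPRY2: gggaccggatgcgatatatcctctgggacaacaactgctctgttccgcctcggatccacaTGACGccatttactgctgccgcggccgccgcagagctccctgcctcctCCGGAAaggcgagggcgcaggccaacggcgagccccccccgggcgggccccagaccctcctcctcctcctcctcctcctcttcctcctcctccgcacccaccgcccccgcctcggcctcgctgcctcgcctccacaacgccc
SPRY4: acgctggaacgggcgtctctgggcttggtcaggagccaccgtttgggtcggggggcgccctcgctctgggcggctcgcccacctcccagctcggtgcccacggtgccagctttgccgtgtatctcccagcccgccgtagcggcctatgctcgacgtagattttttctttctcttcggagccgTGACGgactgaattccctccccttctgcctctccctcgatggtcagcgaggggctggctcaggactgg
PHLDA1: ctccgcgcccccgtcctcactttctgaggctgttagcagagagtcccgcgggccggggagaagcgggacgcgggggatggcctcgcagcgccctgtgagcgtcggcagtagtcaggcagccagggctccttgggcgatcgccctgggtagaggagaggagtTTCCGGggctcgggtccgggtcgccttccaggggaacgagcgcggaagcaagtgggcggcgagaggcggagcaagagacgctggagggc

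The DUSP6 window held 1 match to TGAATG, from 133 to 128 bases before the start. In SPRY2, TGACG lay from 190 to 186 and CCGGAA from 142 to 137 bases before the start. In SPRY4, TGACG lay from 68 to 64 bases before it, and in PHLDA1 CCGGAA lay on the other strand, from 89 to 84 bases before it. RefSeq windows were matched for 6 members, which include SPRED1 and SPRED2, whose windows held none of these motifs. DUSP4, DUSP5, ETV4 and ETV5 had no entry. CCGGAA was thus in 2 of 6 members against 14.8% of 27305 promoters of this length, and the shorter GGAA was not counted. TGACG was in 2 of 6 against 21.7%, TGAATG in 1 of 6 against 10.1%, and TGANTCA in 0 of 6 against 6.60%. These matches describe the letters only.

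The libraries were checked against their labels before the members were compared. TMEM161A had an FPKM (fragments scaled by gene length and library depth) of 42.6 with the control and 4.64 with the TMEM161A siRNA in HT29, and of 39.1 and 7.61 in LIM1215, so the targeted gene followed the siRNA labels. General epithelial genes were present throughout, with EPCAM between 154 and 533 FPKM. Of 8 colorectal epithelial markers, the LIM1215 libraries had all above 1 FPKM, but both HT29 libraries had 3 under 1. CDX1, a transcription factor of intestinal epithelium, was listed at 0 in both HT29 libraries and at 88.4 and 132 in LIM1215. VIL1, the gene of the brush border protein villin, was at 0.0397 and 0 against 192 and 261, and KRT20 at 0.306 and 0.815 against 67.8 and 92.2. CDX2, another intestinal transcription factor of the list, was present in the HT29 libraries, at 8.29 and 8.04 against 96.8 and 150 in LIM1215. A further 8 intestinal genes, picked after these values were seen (CDH17, GPA33, HNF4A, LGALS4, MUC13, CEACAM5, PHGR1 and AGR2), summed to 1.09 and 0.580 FPKM in the HT29 libraries and to 3187 and 3061 in LIM1215. HT29 is generally described as a line of intestinal epithelial type, so these absences go against the label, and the libraries are called HT29-labelled from here on. FPKM carry no genotype, so whether these cells are HT29, and whether they carry the BRAF change, was not tested. Of the defining markers of other cell types, leukocyte and endothelial genes were below 1 FPKM in all 4 libraries, as were COL3A1 and DCN. COL1A1 was at 17.6 and 15.95 in the HT29-labelled libraries and at 4.83 and 8.56 in LIM1215.

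The members were well measured in every library. All 10 passed the filter of a mean FPKM of at least 1 over the 4 libraries, as did 14803 genes in all. By estimate, 1 FPKM equalled 18.16 to 21.6 fragments per kilobase, so the members rested on an estimated 373 fragments (SPRY2, HT29-labelled control) to 11190.5 fragments (DUSP5, HT29-labelled control). Intervals below are 95% intervals of these estimated fragments and cover counting error only. The estimates use the length of 1 canonical transcript per gene, while members have from 2 (such as DUSP4) to 14 (ETV5) annotated transcripts. The error from this choice is not in the intervals. In bulk RNA, fewer cells of a type and less RNA per cell cannot be told apart.

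**Figure D1:**
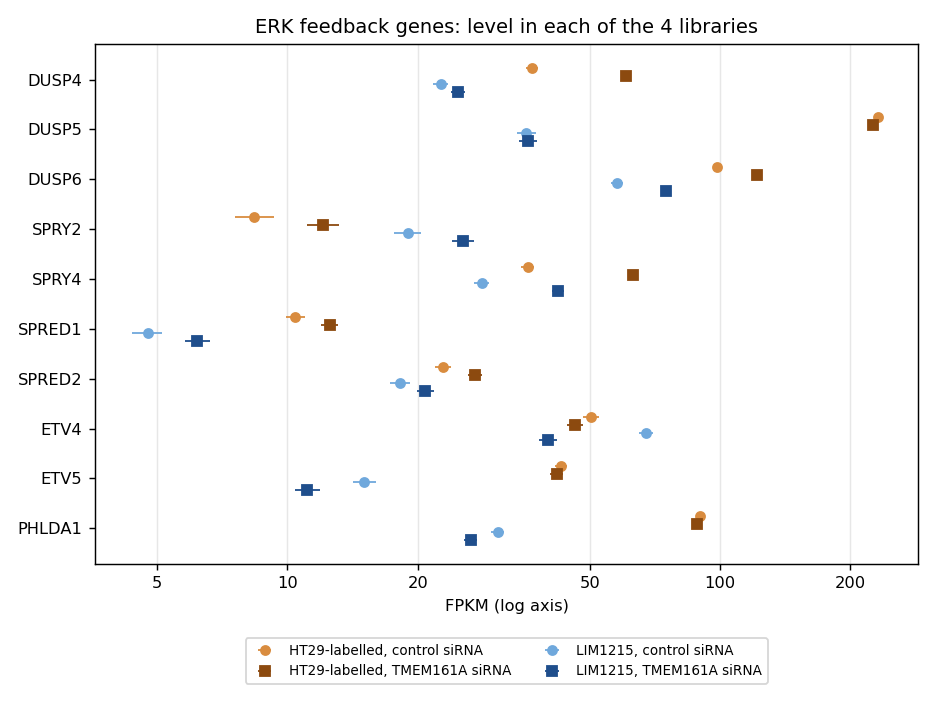
FPKM of each ERK feedback gene (horizontal log axis) in each of the 4 libraries, 1 point a library, with bars for the 95% counting interval. DUSP5 stands at 231 and 226 in the HT29-labelled and at 35.7 and 36.1 in the LIM1215 libraries, while SPRY2 is the only gene with both LIM1215 points to the right of both HT29-labelled points.

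Levels were first ordered within each library, on the FPKM scale, which corrects for gene length. In the HT29-labelled control the order from the top was DUSP5 (231), DUSP6 (98.5), PHLDA1 (89.7), ETV4 (50.3), ETV5 (42.8), DUSP4 (36.8), SPRY4 (35.9), SPRED2 (22.9), SPRED1 (10.4) and SPRY2 (8.39). Only DUSP4 and SPRY4 had overlapping counting intervals among neighbours in that order. In the LIM1215 control ETV4 led with 67.4, before DUSP6 (57.7), DUSP5 (35.7), PHLDA1 (30.6), SPRY4 (28.1), DUSP4 (22.6), SPRY2 (18.96), SPRED2 (18.2), ETV5 (15.1) and SPRED1 (4.76). There, only SPRY2 and SPRED2 overlapped as neighbours. DUSP5 was therefore the most abundant member in one control and ETV4 in the other, and the phosphatase genes DUSP5 and DUSP6 were among the top 3 in both controls. In the HT29-labelled knockdown library the top 3 were again DUSP5 (226), DUSP6 (122) and PHLDA1 (88.3). In the LIM1215 knockdown library DUSP6 led with 74.9, before SPRY4 (42.3) and ETV4 (40.01), whose intervals overlapped, and DUSP5 (36.1).

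The control libraries were compared because HT29 is known for mutant BRAF, which was not checked in these libraries. In LIM1215, 8 of the 10 genes were lower and 2 higher than in the HT29-labelled control, and the median log2 ratio of FPKM + 1 was −0.72. Over all 14803 genes the median was 0.05, and 45.9% of genes were lower. By a 2-fold threshold (a log2 ratio of 1 or more, up or down), DUSP5, ETV5 and PHLDA1 were lower, 3 of 10 against 7.42% of all genes. SPRY2 was higher, 1 of 10 against 12.0% of all genes, a share near that background.

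The comparison was repeated between the knockdown libraries, which share no library with the controls. There 9 of 10 members were lower in LIM1215, as were 47.4% of all genes, with a median of −0.80 against 0.03 over all genes. DUSP4, DUSP5, ETV5 and PHLDA1 passed 2-fold lower, 4 of 10 against 8.53%, and SPRY2 passed 2-fold higher, against 12.7%. Both LIM1215 libraries lay below both HT29-labelled libraries for 7 members, as they did for 28.7% of all genes. They lay above them for SPRY2 alone, as for 35.1% of all genes, and overlapped for SPRY4 and ETV4. Scaling moved the split over all genes between the controls: 1773 were higher and 1099 lower by 2-fold as deposited, and 1527 and 1516 with a common sum, where 0 members were higher and 4 lower. HT29 and LIM1215 are known to differ in BRAF status, but whether the HT29-labelled cells carry the change was not tested. Other differences between the cells cannot be told apart from it here. The part of the missing intestinal markers was not tested.

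**Figure D2:**
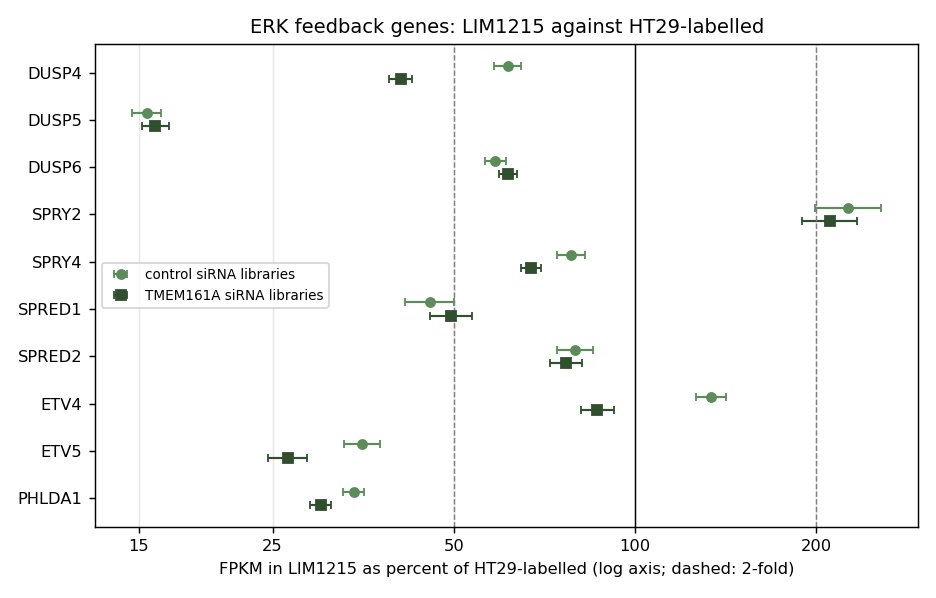
FPKM in LIM1215 as a percent of the HT29-labelled library (horizontal log axis) for each ERK feedback gene, for the control siRNA (circles) and the TMEM161A siRNA libraries (squares), with 95% counting intervals. Dashed lines mark 2-fold. DUSP5 lies at 15.4% and 15.96%, SPRY2 at 226% and 211%, and ETV4 on both sides of 100%.

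Among the phosphatase genes, DUSP5, whose product is a nuclear phosphatase specific for ERK, set the lines apart most. Its FPKM was 231 (control) and 226 (knockdown) in the HT29-labelled libraries, and 35.7 (control) and 36.1 (knockdown) in LIM1215. Both HT29-labelled values were high and both LIM1215 values low, with no overlap. The LIM1215 control stood at 15.4% of the HT29-labelled control (interval 14.6% to 16.3%), a log2 ratio of −2.66, and only 44 of the 14803 genes had a lower ratio. DUSP6, the cytoplasmic ERK phosphatase, was at 98.5 and 122 in the HT29-labelled and at 57.7 and 74.9 in the LIM1215 libraries. The lines did not overlap, and the control ratio was 58.6% (56.3% to 61.0%), short of 2-fold. DUSP4, a nuclear phosphatase that also acts on other MAP kinases, was at 36.8 and 60.7 against 22.6 and 24.8, again without overlap. Its LIM1215 level was 61.4% of the HT29-labelled level in the controls and 40.8% in the knockdown libraries, so DUSP4 passed 2-fold only in the latter. The balance within the family differed too: DUSP5 was 2.34 times the FPKM of DUSP6 in the HT29-labelled control, whereas DUSP6 was 1.62 times that of DUSP5 in the LIM1215 control.

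The Sprouty genes went opposite ways. SPRY2, an inhibitor of receptor signalling to RAS, was at 8.39 (control) and 12.1 (knockdown) in the HT29-labelled libraries, and at 18.96 (control) and 25.5 (knockdown) in LIM1215. Both LIM1215 values were the high ones. The control ratio was 226% (199% to 256%), a log2 ratio of 1.09, which dropped under the 2-fold threshold with a pseudocount of 5 (0.84), upper quartile scaling (0.95) or FPKM set to a common sum (0.93). SPRY4, a related inhibitor, was at 35.9, 62.9, 28.1 and 42.3 in the same order, so that the lines overlapped. SPRY4 was 4.28 times the FPKM of SPRY2 in the HT29-labelled control but 1.48 times in the LIM1215 control.

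The SPRED genes, whose products bring the RAS inhibitor NF1 to the membrane, were both lower in LIM1215. SPRED1 was at 10.4 and 12.5 in the HT29-labelled and at 4.76 and 6.20 in the LIM1215 libraries, without overlap. Its control ratio was 45.6% (41.4% to 50.1%). With the pseudocount of 1 the log2 ratio was −0.99, just short of 2-fold. It passed with a pseudocount of 0.1 (−1.12), a common sum (−1.17), upper quartile scaling (−1.12) and centring on the median (−1.04). SPRED2 was at 22.9 and 27.1 against 18.2 and 20.8, a control ratio of 79.5% (74.3% to 85.1%).

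The paired ETS factor genes did not move together between lines. ETV5 was at 42.8 and 41.9 in the HT29-labelled and at 15.1 and 11.1 in the LIM1215 libraries, without overlap, and the control ratio was 35.2% (32.8% to 37.7%), a log2 ratio of −1.45. ETV4 was at 50.3 and 46.2 against 67.4 and 40.01, so the LIM1215 libraries held both its highest and its lowest value. In the HT29-labelled control the ETV4 level was 1.17 times that of ETV5, and in the LIM1215 control it was 4.47 times. PHLDA1, a gene for a pleckstrin homology-like protein induced by growth factors, was at 89.7 and 88.3 in the HT29-labelled libraries. It was at 30.6 and 26.5 in LIM1215, a control ratio of 34.1% (32.8% to 35.5%) and a log2 ratio of −1.52. The ETV4 gene overlaps DHX8 on the opposite strand, and ETV5 overlaps DGKG on its own strand. ETV5, SPRY4 and PHLDA1 each overlap an antisense gene (ETV5-AS1, SPRY4-AS1 and PHLDA1-AS1). SPRED2 overlaps a gene without a symbol on its own strand, and DUSP6 overlaps such a gene on the opposite strand. How shared fragments were counted and which strand setting was used are not given in the sources used here, so these values are less certain.

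TMEM161A siRNA was then compared with control siRNA within each line. No member passed 2-fold in either line or direction. Of all genes, 1.85% were higher and 1.95% lower by 2-fold in the HT29-labelled cells, and 1.68% and 1.78% in LIM1215. By a 1.5-fold threshold, DUSP4 and SPRY4 were higher in the HT29-labelled knockdown, 2 of 10 against 7.87% of all genes, and no member was lower, against 6.91%. In LIM1215 no member was higher by 1.5-fold on this scale, against 6.63%, with SPRY4 just short (0.57 against a threshold of 0.58) and past it with a pseudocount of 0.1 (0.59), and ETV4 was lower, 1 of 10 against 6.18%. The median log2 ratio of the members was 0.24 in the HT29-labelled cells and 0.16 in LIM1215, against 0.04 and 0.02 over all genes.

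The members split by sign. DUSP4, DUSP6, SPRY2, SPRY4, SPRED1 and SPRED2 were higher with the TMEM161A siRNA in both lines, 6 of 10 genes, as were 36.0% of all genes. ETV4, ETV5 and PHLDA1 were lower in both lines, 3 of 10 genes, as were 28.0% of all genes. DUSP5 had opposite signs, both near 0. Each line had its own control library, so the lines share none in these counts. Both knockdowns had the same siRNA by title. Effects of its sequence on genes other than TMEM161A could be shared by both lines and were not tested. Counting intervals included no change for DUSP5, ETV5 and PHLDA1 in the HT29-labelled cells and for DUSP5 alone in LIM1215.

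**Figure D3:**
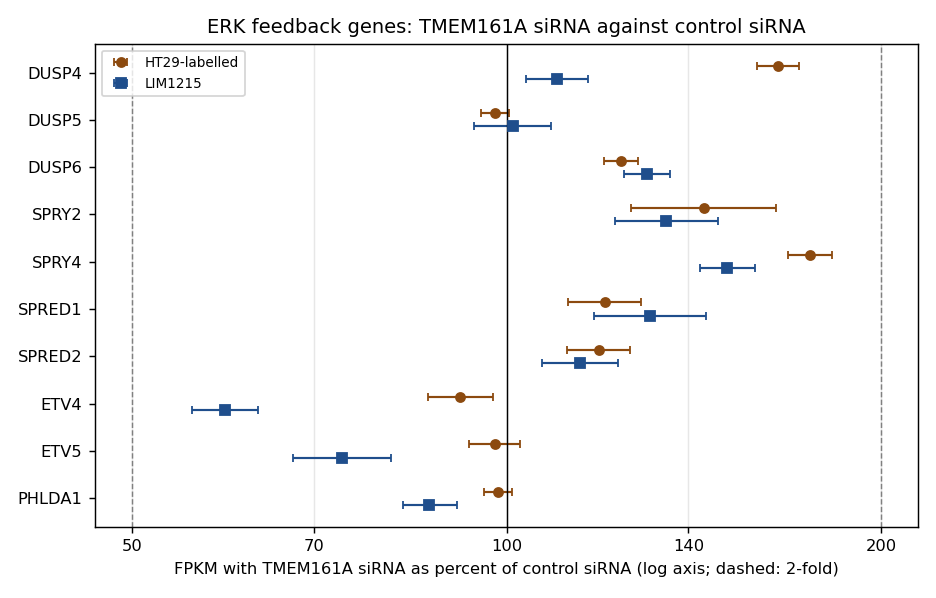
FPKM with the TMEM161A siRNA as a percent of the control siRNA (horizontal log axis) for each ERK feedback gene in HT29-labelled cells (circles) and LIM1215 (squares), with 95% counting intervals. Dashed lines mark 2-fold, which no gene reaches. SPRY4 lies farthest to the right in both lines, at 175% and 150%, and ETV4 in LIM1215 farthest to the left, at 59.4%.

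SPRY4 had the highest ratio of the members in both lines. Its FPKM went from 35.9 in the control to 62.9 in the knockdown library of the HT29-labelled cells, 175% of control (168% to 183%) and a log2 ratio of 0.79. Of all genes, 553 had a higher ratio there. In LIM1215 it went from 28.1 to 42.3, 150% of control (143% to 158%) and a log2 ratio of 0.57. SPRY2 was also higher in each knockdown library, at 144% of control (126% to 165%) in the HT29-labelled cells and 134% (122% to 148%) in LIM1215. The SPRED genes stood between 114% and 130% of control. SPRED1 was at 120% (112% to 128%) and 130% (117% to 145%), and SPRED2 at 119% (112% to 126%) and 114% (107% to 123%), in HT29-labelled and LIM1215 cells respectively.

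The 3 phosphatase genes did not follow one another. DUSP6 went from 98.5 to 122 in the HT29-labelled cells, 124% of control (120% to 128%), and from 57.7 to 74.9 in LIM1215, 130% (124% to 135%). DUSP4 went from 36.8 to 60.7 in the HT29-labelled cells, 165% of control (159% to 172%), but only from 22.6 to 24.8 in LIM1215, 110% (104% to 116%). DUSP5 was at 97.8% of control (95.3% to 100.5%) and 101% (94.2% to 109%). DUSP4 lies on chromosome 8 from 29333064 to 29350684, minus strand (GRCh38, GENCODE release 44), and overlaps no other annotated gene. DUSP5 lies on chromosome 10 from 110497907 to 110511533, plus strand.

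ETV4 had the lowest ratio in both lines. In LIM1215 its FPKM went from 67.4 to 40.01, 59.4% of control (55.8% to 63.1%) and a log2 ratio of −0.74, and 547 genes had a lower ratio. ETV4 lies on chromosome 17 from 43527844 to 43579620 and ETV5 on chromosome 3 from 186046314 to 186110318, both on the minus strand. In the HT29-labelled cells ETV4 went from 50.3 to 46.2, 91.8% of control (86.5% to 97.4%). ETV5 was at 73.8% of control (67.4% to 80.8%) in LIM1215 and at 97.8% (93.3% to 102.5%) in the HT29-labelled cells. PHLDA1 was at 86.7% (82.5% to 91.1%) and 98.4% (95.8% to 101.1%). For these 3 genes the LIM1215 ratio was the lower one, by 0.62 for ETV4, 0.38 for ETV5 and 0.18 for PHLDA1 on the log2 scale. These sizes have no error between cultures, and the difference between the lines was not tested.

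Other genes of the pathway were placed beside the members, from lists set out by name when earlier results of these data were known. Of 25 components of the cascade, from EGFR to the substrates of ERK, all passed the filter. None of them passed 2-fold in either knockdown comparison, against 1.68% to 1.95% of all genes in each direction. Between the controls, 2 of 25 passed 2-fold higher in LIM1215, against 12.0% of all genes, and none lower, against 7.42%, with a median log2 ratio of 0.13, which turned negative under upper quartile scaling (−0.02) and a common sum (−0.05). They were ERBB3, a receptor of the EGF receptor family (16.9 in the HT29-labelled and 98.9 in the LIM1215 control, 2.48), and the adaptor gene GAB1 (1.69 and 7.56, 1.67). With a pseudocount of 5 only 1 cascade gene passed. Between the knockdown libraries ERBB2 passed as well (27.1 and 72.3, 1.38), so 3 of 25 were higher, against 12.7% of all genes. None was lower there, against 8.53%, but 1 was with a pseudocount of 0.1, a common sum or upper quartile scaling. BRAF RNA itself was at 10.07 in the HT29-labelled control and 5.93 in the LIM1215 control, a log2 ratio of −0.68.

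Of 16 other genes of the DUSP, Sprouty, SPRED and ETV families, 15 passed the filter, and SPRY3 did not. Between the controls, DUSP16 (1.64), DUSP10 (1.40) and SPRY1 (1.14) were higher in LIM1215 by 2-fold and ETV1 (−1.98) was lower, 3 and 1 of 15 against 12.0% and 7.42% of all genes, with a median of 0.07 that turned negative under upper quartile scaling (−0.07) and a common sum (−0.10). With a pseudocount of 5 the count of higher genes was 1. DUSP10 and DUSP16 encode phosphatases that act mainly on the stress kinases JNK and p38. Between the knockdown libraries DUSP10 and DUSP16 were again higher by 2-fold, and ETV1 (−1.68) and DUSP9 (−1.16) lower, 2 and 2 of 15 against 12.7% and 8.53% of all genes. With a pseudocount of 5 the count of lower genes was 0. In the knockdown comparisons none of the 15 passed 2-fold, against 1.68% to 1.95% of all genes in each direction. With a pseudocount of 0.1, 1 was higher in LIM1215. The medians were 0.30 in the HT29-labelled cells and 0.31 in LIM1215, against 0.04 and 0.02 over all genes.

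**Figure D4:**
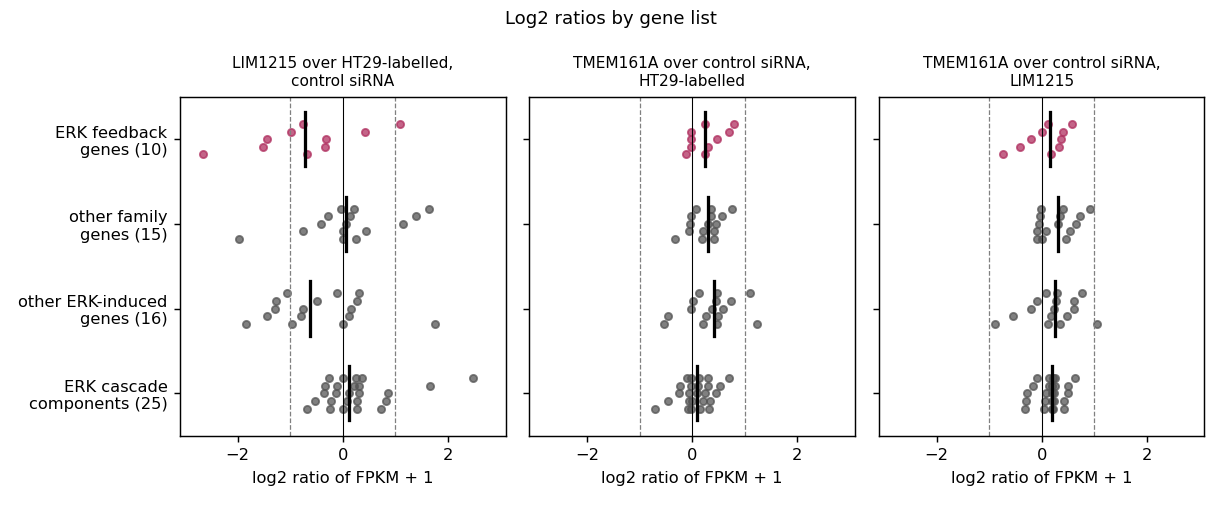
Log2 ratio of FPKM + 1 (horizontal axes) for each gene that passed the filter in 4 lists, between the control libraries (left) and for the TMEM161A siRNA over control siRNA in HT29-labelled cells (middle) and LIM1215 (right). Black bars are medians, dashed lines mark 2-fold, and the vertical spread of points within a list has no meaning. The medians between the controls are −0.72 for the ERK feedback genes, 0.07, −0.62 and 0.13 for the other lists from top to bottom; 0.07 and 0.13 turn negative with a common sum (−0.10 and −0.05) or upper quartile scaling (−0.07 and −0.02).

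Of 16 other ERK-induced genes, 5 were lower and 1 higher in the LIM1215 control by 2-fold, against 7.42% and 12.0% of all genes, with a median log2 ratio of −0.62, against −0.72 for the members. The lowest ratios were those of EREG, a ligand of the EGF receptor (196 in the HT29-labelled and 53.8 in the LIM1215 control, −1.85), the potassium channel gene KCNN4 (−1.45), the pseudokinase gene TRIB1 (−1.29) and the ephrin receptor gene EPHA4 (−1.28). EPHA4 was low in both, at 2.94 and 0.623 FPKM. HBEGF, another EGF receptor ligand, was higher in LIM1215 (5.77 and 21.8, 1.75). Between the knockdown libraries 7 were lower and 1 higher, against 8.53% and 12.7% of all genes, with a median of −0.91. With the TMEM161A siRNA, FOSL1, an AP-1 subunit, was higher by 2-fold in the HT29-labelled cells (100.4 to 216, 1.10). ELK3, an ETS factor that ERK phosphorylates, was higher by 2-fold in both lines (21.2 to 51.1, 1.23, and 11.8 to 25.5, 1.05), and with a pseudocount of 5 the number of these genes past 2-fold in LIM1215 went from 1 to 0. By 2-fold, 2 of the 16 were thus higher in the HT29-labelled cells and 1 in LIM1215, against 1.85% and 1.68% of all genes. None of the 16 was lower by 2-fold, against 1.95% and 1.78%. By sign, 13 were higher and 3 lower in the HT29-labelled cells, and 12 and 4 in LIM1215. Of all genes, 53.9% and 53.1% were higher. The medians were 0.41 and 0.26, against 0.04 and 0.02 over all genes.

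A published score of ERK output sums 10 genes, 7 of which are members here (DUSP4, DUSP6, ETV4, ETV5, PHLDA1, SPRY2 and SPRY4), so it is largely a restatement of them. Its 3 further genes are CCND1, the gene of cyclin D1, and the receptor genes EPHA2 and EPHA4. All 3 were also in the list of other ERK-induced genes above, so the score adds no gene to those already counted. The median log2 ratio of the 10 was −0.51 between the controls and −0.63 between the knockdown libraries. It was 0.28 for the TMEM161A siRNA in the HT29-labelled cells and 0.18 in LIM1215. By 2-fold, 3 of the 10 were lower and 1 higher between the controls, against 7.42% and 12.0% of all genes. None passed in a knockdown comparison, against 1.68% to 1.95% in each direction.

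Genes with a pattern like that of DUSP6 were sought among 12287 protein-coding genes, by the Euclidean distance between the 4 log2(FPKM + 1) values, each set centred on its own mean. With only 4 libraries this is a description. The nearest were TPRG1 (distance 0.0324), PRKACA, a catalytic subunit of protein kinase A (0.0333), SOCS5, an inhibitor of cytokine signalling (0.0423), OSBPL8 (0.0470) and the spermine oxidase gene SMOX (0.0562). PRKACA was at 43.01 and 53.4 in the HT29-labelled control and knockdown libraries and at 25.2 and 31.8 in LIM1215. TPRG1 was low, at 2.25 and 2.90 in the HT29-labelled libraries and at 0.885 and 1.48 in LIM1215. At such levels FPKM + 1 understates changes, so its closeness to DUSP6 depends on the pseudocount. The nearest member was SPRED1, at a distance of 0.23 and rank 151, followed by SPRED2 at rank 865 and DUSP4 at rank 876. SPRY2 (rank 10789) and DUSP5 (rank 11064) were the farthest members.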

How the data were processed

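RNA was measured in 4 libraries made with a stranded mRNA kit, per the labels' protocols. The authors deposited FPKM per Ensembl gene identifier, and the submitters' processing notes name HISAT2 2.1.0, SAMtools 1.20, Cufflinks 2.2.1, Cuffdiff and GRCh38. The annotation release, filters and strand setting are not given in the sources used here. FPKM is relative to all fragments, so abundant genes that change shift all others. Positions and lengths came from GENCODE release 44.

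Groups followed the sample titles. The measure was the log2 ratio of FPKM + 1, which understates changes of low genes, for genes with a mean FPKM of at least 1. No test was made with 1 library per group. The DUSP6 neighbours and the pathway genes named (at most 4 past 2-fold per list) follow a written rule, and BRAF, CCND1, EPHA2 and EPHA4 were named beyond it. The members and lists were chosen with earlier results of these data known. Fragments per FPKM were estimated so that most low values fell within 0.03 of whole fragments (78.2% to 79.1% of values from genes with 1 transcript of at least 500 bases did). Counts for members use the canonical transcript. Ratio intervals are exact Clopper-Pearson and level intervals exact Poisson. The scripts (Python 3.11.15, scipy 1.17.1) were tested on simulated data. Alternatives were other pseudocounts, filters, scalings and a 1.5-fold threshold.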

Additional observations from a re-analysis of the deposited data

Results flagged for a closer look

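The log2 ratio of DUSP5, TMEM161A siRNA over control siRNA, was −0.03 in the HT29-labelled cells and 0.02 in LIM1215, opposite signs with a difference of 0.0468. Both counting intervals included no change, and the LIM1215 sign turned to −0.01 with upper quartile scaling and with centring on the median. ETV4 was higher in LIM1215 than in the HT29-labelled cells in the control libraries (0.41) and lower in the knockdown libraries (−0.20), a difference of −0.62. Both signs held under the 5 alternatives run for single genes, with ranges of 0.24 to 0.42 and −0.34 to −0.19. Neither difference was tested, since each group had 1 library.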

How the results depend on the processing

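Each group had 1 library, and a fit of the siRNA with the line as a block, which leaves 1 residual degree of freedom, was not made. The threshold, the pseudocount and the scaling each moved results. By 1.5-fold, 6 members were lower between the controls, against 16.3% of all genes. In the HT29-labelled knockdown 2 were higher, against 7.87%. In the LIM1215 knockdown 1 was lower, against 6.18%, a share near that background. The count of members higher in LIM1215 by 2-fold, SPRY2 alone, became 0 in both line comparisons with a pseudocount of 5, a common sum or upper quartile scaling, and 0 between the knockdown libraries after centring. The median over the members between the controls moved to −0.90 (common sum) and −0.87 (upper quartile). Between the knockdown libraries it moved to −0.91 and −0.93, and to −0.66 with a pseudocount of 5. A common sum moved the median of all genes between the controls from 0.05 to −0.11. The log2 ratio of TMEM161A was −3.17, −2.30 and −3.07 in the HT29-labelled cells with a pseudocount of 0.1, of 5 and a common sum, and −2.35 and −1.81 in LIM1215 with the first 2. Of the 40 member ratios, only that of DUSP5 in LIM1215 changed sign. Counts over all genes depended on the threshold and the pseudocount: those lower between the controls ran from 353 to 2409. With 1 library per group, depth limits little for these members, but the variation between cultures was not measured.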
